A study of Homo sapiens with 2 samples.

Results

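The cytosolic ribosome is built on ribosomal RNA from a large and a small subunit, each holding 1 copy of most of its proteins, and the genes of these proteins are among the most strongly transcribed and spliced in growing cells. Ribosomal protein genes are short, most carry several introns, many host snoRNAs in those introns, and each has left processed pseudogenes across the genome. The splicing factor U2AF recognises the end of an intron, the 3' splice site, where its larger subunit U2AF2 contacts a pyrimidine-rich tract just before the AG, so the introns of a heavily transcribed gene are natural targets.

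The 84 genes described here were the protein-coding rows of the deposited count table whose GENCODE 29 symbol is that of a ribosomal protein of the large subunit (RPL, with RPLP0, RPLP1 and RPLP2) or of the small subunit (RPS, with RPSA), leaving out genes of the Y chromosome and the RPS6K kinases. They comprised 52 large and 32 small subunit genes, paralogs included, of 58347 genes in the table. Membership was decided by name alone. The counts came from U2AF2 eCLIP of HEL, a human erythroleukemia cell line, in which RNA crosslinked to U2AF2 by ultraviolet light at 400 mJ/cm2 was recovered with an antibody and sequenced. There was 1 group of untreated cells with 2 biological replicates and no comparison group, and input libraries were not analysed here. Even where its reads come from the named gene, a count therefore mixes how much RNA that gene makes with how much is bound. These amounts cannot be told apart.

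Gene counts summed to 995428 in replicate 1 and 1350116 in replicate 2. Genes took 2.66% of the uniquely mapped reads in replicate 1 and 2.60% in replicate 2, and 22.1% and 20.7% of all reads mapped to several places and were counted on no gene. No source used here gives the strand on which reads were counted. For a gene with a neighbour on the other strand, it is uncertain which of the pair the reads came from. Counts of HEL's lineage markers were low, with 6 and 14 for GATA1 and 7 and 8 for the fetal globin gene HBG2, 0 and 2 for the platelet integrin gene ITGA2B and 0 in both libraries for PF4, so the table does not check the cell type. Intervals and limits below cover counting error only, since PCR copies were not told apart.

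The 3' splice sites that matter below are those of ribosomal protein introns that lie under an exon of a gene on the other strand, where a read of the ribosomal protein intron and a read of the other gene's exon would lie on the same bases. In the following sequences, read 5' to 3' on the strand of the ribosomal protein gene from GENCODE 29 transcripts (GRCh38), the last 27 bases of the intron are followed by the first 3 bases of the exon, and capitals mark the longest run of pyrimidines in the intron part. The first 8 lie under an exon of an opposite-strand gene with many counts, namely AC245140.2 for both RPL10 sites, AC010761.1, AC100778.3, CCDC84, ATG10 for both RPS23 sites, and SH3D19. RPS21, RPL3 and RPS6 are shown for comparison, as genes with counts of their own and sites under no such exon. The 11 were chosen after the counts were seen, and they are not a fair sample of tract lengths. The RPL30 sites under AP003352.1, the opposite-strand gene with the most counts, are not printed, and the 3 that could be read had longest pyrimidine runs of 7, 3 and 5 bases. The RPL3 and RPS6 sites printed have the longest run of their gene, 14 and 13 bases, where other sites of these genes go down to 4 and 5.
RPL10 (chrX:154398038-154398067, plus strand): gggtaCTTTCCTTTTTTCCactctcagaaa
RPL10 (chrX:154398470-154398499, plus strand): gttccgaCTCTCTCTTTTTCgttgcagcca
RPL23A (chr17:28722696-28722725, plus strand): caggtgaccccattttgCCTCTCCCaggct
RPL17 (chr18:49491831-49491860, minus strand): tgaaacaggctgtaTTTTCTTCCaaagggt
RPS25 (chr11:119015756-119015785, minus strand): tctgattcttttaaTTTTTTTTTacaggtc
RPS23 (chr5:82276253-82276282, minus strand): agaaataaaCTTCTTattttattccaggaa
RPS23 (chr5:82276516-82276545, minus strand): cacagtgctgtgCCTTTTgtatttcagagg
RPS3A (chr4:151102844-151102873, plus strand): aaatctgacggtaTCTTTTTTCTCCagaca
RPS21 (chr20:62387816-62387845, plus strand): ggtttgtgaCCCTTCTTCTCTTTCTaggtt
RPL3 (chr22:39313308-39313337, minus strand): taaaTCCCTTCCCCTCTTggcccatagtcc
RPS6 (chr9:19379616-19379645, minus strand): aactaTTTCCCCCCTTTTaatccttagctg

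Of 501 sites used by coding transcripts of the 84 genes, 313 could be read in this way, and 312 of them ended in AG. Pyrimidines made up a median of 70% of the last 20 intron bases at the 15 sites under an opposite-strand exon (range 55 to 85) and 65% at the other 298 (range 30 to 90). The ranges overlap, and both groups hold the kind of tract that U2AF2 binds.

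On their own exons, ribosomal protein genes held few counts. The 84 genes together took 917 counts in replicate 1, or 0.0921% of all gene counts (exact 95% binomial interval 0.0863 to 0.0983), and 1201 in replicate 2, or 0.0890% (0.0840 to 0.0941). Detection, taken here as 10 or more counts in both libraries, was reached by 22 of the 84, or 26.2%, against 24.8% of all protein-coding genes. No count in either library was seen for 12, or 14.3%, against 20.1% of all protein-coding genes. The median was 1.77 log2 CPM (counts per 1e+06 scaled gene counts, with a prior count of 2), against 1.78 for the other 19733 protein-coding genes. In counts, both medians were 4 over both libraries, so the prior count weighs on this likeness, which holds for medians only. Per kb of exon the median was 1.31 counts against 0.911 for the other protein-coding genes. Pooled over all exons, ribosomal protein genes held 6.91 counts per kb against 12.2.

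**Figure D1:**
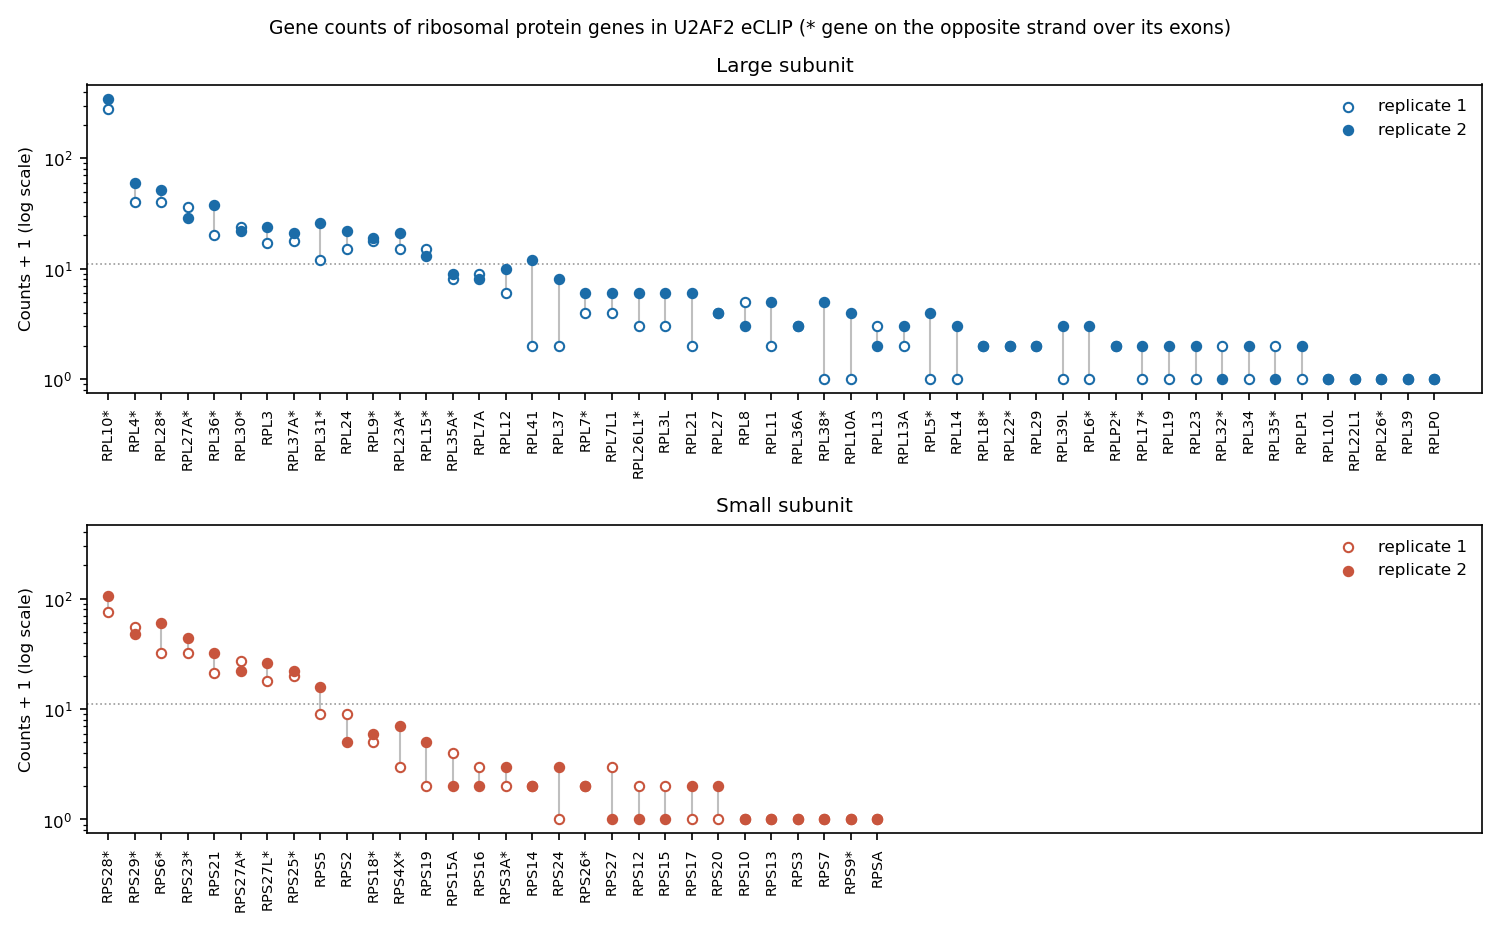
Counts plus 1 on a log scale for large subunit genes (upper panel) and small subunit genes (lower panel), with open circles for replicate 1, filled circles for replicate 2, and the dotted line at 10 counts. A star marks genes with an opposite-strand partner, a gene on the other strand whose span covers exon bases. RPL10 stands far above the rest with 279 and 347 counts, most starred genes are on the left, and the genes at the right end lie at 0 in both libraries.

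The counts were concentrated in a few genes. RPL10, whose product helps shape the tRNA sites of the large subunit, held 279 and 347 counts, or 269 ± 11.6 CPM (SD, n = 2), which was 30.4% of the ribosomal protein counts in replicate 1 and 28.9% in replicate 2. The 12 leading genes held 73.2% and 70.6%. RPS28, a small subunit protein beside the mRNA exit, followed with 75 and 104 counts (76.2 ± 2.56 CPM) and RPS29 with 54 and 47 (44.4 ± 12.9 CPM).

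Large subunit genes next in order were RPL4, a protein of the peptide exit tunnel, with 39 and 59 counts, RPL28 with 39 and 51, RPL27A with 35 and 28, RPL36 with 19 and 37 and RPL30 with 23 and 21. Small subunit genes next in order were RPS6, the classic target of the S6 kinases, with 31 and 59 counts, RPS23, a protein of the decoding center, with 31 and 43, RPS21 with 20 and 31, and RPS27A, which is made as a fusion with ubiquitin, with 26 and 21. From RPS29 downward, the values of neighbours in this order overlap between the libraries, so only RPL10 and RPS28 are set apart. An opposite-strand partner, meaning a gene on the other strand whose span covers any of a gene's exon bases, was annotated for 11 of the 12 leading genes and not for RPS21.

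Per kb of merged exon and over both libraries, RPL10 held 130 counts, RPS28 84.5, RPS21 49.9, RPS6 33.2, RPS25 27.1 and RPL36 24.6, and no other ribosomal protein gene was above 20. Merged exons join those of all transcripts, retained introns included, so these densities are averages over more than the mature mRNA.

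The 12 genes at 0 in both libraries included RPLP0, RPL10L, RPL22L1, RPL26 and RPL39 of the large subunit and RPSA, RPS3, RPS7, RPS9, RPS10 and RPS13 of the small. With 3 counts as the limit, a 0 allows up to 2.98 CPM in replicate 1 and up to 2.25 in replicate 2. Of these genes 10 had no opposite-strand partner, and RPL26 and RPS9 had one. Ribosomal protein genes have many near-identical pseudogenes, and reads that fit several places are outside the counts, so a 0 is not evidence that no read came from the gene.

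The large and small subunits could not be told apart by level. The median was 1.81 log2 CPM for the 52 large subunit genes and 1.68 for the 32 small subunit genes, a difference of 0.13 that was -0.45 in replicate 1 and 0.30 in replicate 2. Detected were 13 of 52 large subunit genes and 9 of 32 small subunit genes (28.1%), and 6 genes of each subunit were at 0. Pooled over all exons, large subunit genes held 7.14 counts per kb and small subunit genes 6.51, a ratio of 1.10. Without RPL10 the ratio was 0.613, so the order of the subunits on this measure was set by 1 gene.

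Groups by role inside the ribosome were mostly near 0. The stalk that recruits elongation factors held 5 and 9 counts on RPL12, 1 and 1 on RPLP2, 0 and 1 on RPLP1 and none on RPLP0. The 5S RNP, whose proteins also restrain MDM2, held 1 and 4 counts on RPL11 and 0 and 3 on RPL5. Of the 9 genes listed for the peptide exit tunnel, RPL4, RPL31 (11 and 25 counts) and RPL23A (14 and 20) were detected. This was 33.3%, against 24.8% of all protein-coding genes. RPL22 held 1 and 1, RPL35 1 and 0, RPL17 and RPL19 0 and 1 each, and RPL26 and RPL39 none. Of the 7 listed for the mRNA channel, RPS28 and RPS23 were detected (28.6%). RPS2 held 8 and 4 counts, RPS14 and RPS26 1 and 1 each, and RPS3 and RPSA none.

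Diamond-Blackfan anemia is an erythroid failure caused by loss of 1 copy of a ribosomal protein gene, and HEL is an erythroid line. Of 19 listed genes of this disease, 4 (21.1%) were detected, against 24.8% of all protein-coding genes. They were RPS28, RPS29, RPL31 and RPL15, the last with 14 and 12 counts. All 4 had an opposite-strand partner, as had 10 of the 19 genes and 18 of the 22 detected ribosomal protein genes. RPS19, the gene most often mutated, held 1 and 4 counts, and RPS7, RPS10 and RPL26 held none.

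Paralogs can be compared with the genes they derive from. RPS27L, a p53-responsive copy of RPS27, held 17 and 25 counts where RPS27 held 2 and 0, and per kb of exon this was 4.60 for RPS27L and 1.93 for RPS27. RPL3L, the muscle form, held 2 and 5 counts where RPL3 held 16 and 23. RPL10L, an intronless germline copy, held none where RPL10 held 279 and 347. RPL22L1 held none where RPL22 held 1 and 1, RPL26L1 held 2 and 5 where RPL26 held none, RPL39L held 0 and 2 where RPL39 held none, and RPL7L1 and RPL7 both held 3 and 5. Of these genes, RPS27L, RPL10, RPL22, RPL7, RPL26 and RPL26L1 have an opposite-strand partner.

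Presence of an opposite-strand partner separated the ribosomal protein genes more clearly than subunit or role. Summed over the libraries, the 37 genes with a partner had a median of 15 counts and the 47 without one a median of 2. In log2 CPM the medians were 3.03 and 1.37, a difference of 1.66 that was 1.98 in replicate 1 and 1.65 in replicate 2. Detected were 18 of the 37 (48.6%) and 4 of the 47 (8.51%), the latter including RPS21, RPL3 and RPL24 (14 and 21 counts). Of other protein-coding genes, 42.3% with a partner and 12.3% without one were detected. The difference was not particular to ribosomal protein genes: for other protein-coding genes the same medians were 2.91 (8234 genes) and 1.37 (11499 genes), a difference of 1.54.

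The pattern held in both subunits. In the large subunit, 24 genes with a partner had a median of 11.5 summed counts and 28 without one a median of 3. In the small subunit, 13 genes with a partner had a median of 40 and 19 without one a median of 2. Both groups reach down to 0, and the groups overlap over most of their range.

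**Figure D2:**
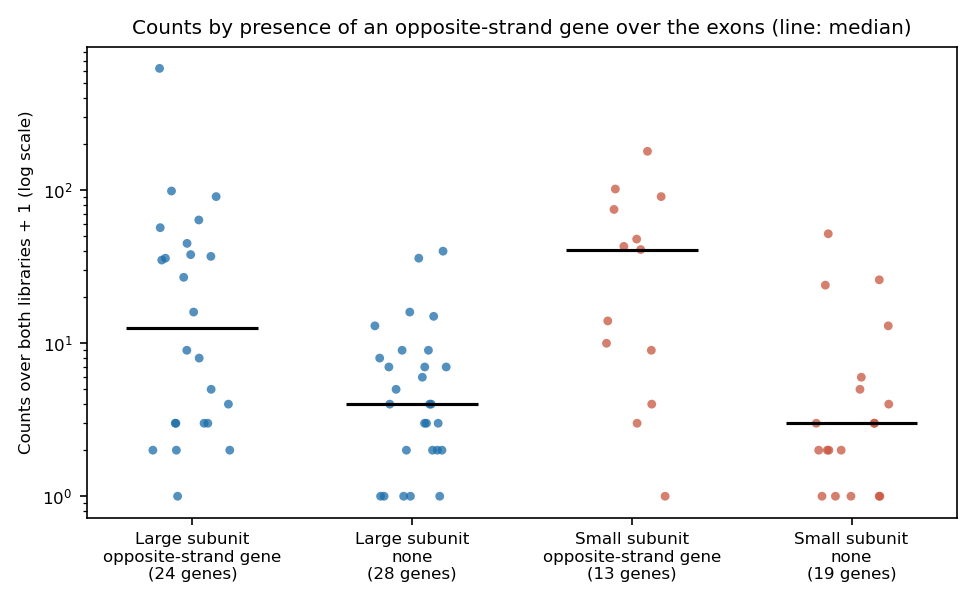
Counts over both libraries plus 1 on a log scale, 1 point per gene, for large and small subunit genes with and without an opposite-strand partner. Black lines mark medians of 11.5 and 3 counts for the large subunit and 40 and 2 for the small subunit, each plus 1. The ranges overlap, and the highest gene without a partner, RPS21, has 51 counts.

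The genes on the other strand held far more counts than the ribosomal protein genes they overlap. In all, 51 opposite-strand genes, 34 coding and 17 non-coding, had exon bases inside the span of 37 ribosomal protein genes. This set is not the 37 genes with a partner above: 36 of its genes have such a partner and 1 has none. The genes of this set held 795 and 1014 counts, against 11292 and 14644 on the 51 opposite-strand genes. The latter were 1.13% and 1.08% of all gene counts. With both libraries pooled, the 37 ribosomal protein genes held 12.2 counts per kb of exon and their opposite-strand genes 137. The ratio of opposite-strand genes to ribosomal protein genes was 11.2, with 11.1 in replicate 1 and 11.3 in replicate 2. For other protein-coding genes these densities were 17.3 and 49.5 counts per kb, a ratio of 2.86. Of the 51 pairs, the opposite-strand gene was higher per kb in both libraries in 34, the ribosomal protein gene in 14, and 3 were tied or mixed.

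The 4 leading opposite-strand genes, all antisense RNAs, held 62.4% of the counts on this set. RPL30 (chromosome 8, 98024851 to 98046469, minus strand, GRCh38) held 23 and 21 counts, against 2377 and 3330 on AP003352.1 (98041726 to 98044121, plus strand), an antisense RNA wholly inside it that ranked 18 by counts among 58039 genes with a model. RPL10 (chromosome X, 154389955 to 154409168, plus strand) held 279 and 347 counts, against 2161 and 2809 on AC245140.2 (154396878 to 154398816, minus strand), a single-exon gene wholly inside it that ranked 24. RPL23A (chromosome 17, 28719393 to 28724359, plus strand) held 14 and 20 counts, against 1015 and 1283 on AC010761.1 (28721487 to 28722877, minus strand), also wholly inside it, which ranked 111.

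Per kb of exon the ribosomal protein genes of these pairs held 10.9 counts for RPL30 and 130 for RPL10, and RPL23A held 4.96 in replicate 1 and 7.08 in replicate 2. The opposite-strand genes held 2869 for AP003352.1, 2563 for AC245140.2 and 2556 for AC010761.1.

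Among coding genes on the other strand, CCDC84 opposite RPS25 held 400 and 588 counts, ATG10 (an autophagy gene) opposite RPS23 held 351 and 501, and SH3D19 opposite RPS3A held 308 and 504. LONP1 (a mitochondrial protease gene) opposite RPL36 held 348 and 408, FAM69A opposite RPL5 held 312 and 434, and LIAS (lipoic acid synthesis) opposite RPL9 held 271 and 333. The ribosomal protein genes themselves held 19 and 21 counts on RPS25, 1 and 2 on RPS3A and 17 and 18 on RPL9. AC100778.3, an antisense RNA, held 283 and 352 counts opposite RPL17, which held 0 and 1. NKIRAS1 held 204 and 267 opposite RPL15, and CAND2 held 210 and 257 opposite RPL32, which held 1 and 0. Only a small part of the exon bases of these coding genes lies inside the ribosomal protein gene, 1.57% for CCDC84 and 13.1% for ATG10, and where along their exons the counts fell cannot be read from a gene table.

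**Figure D3:**
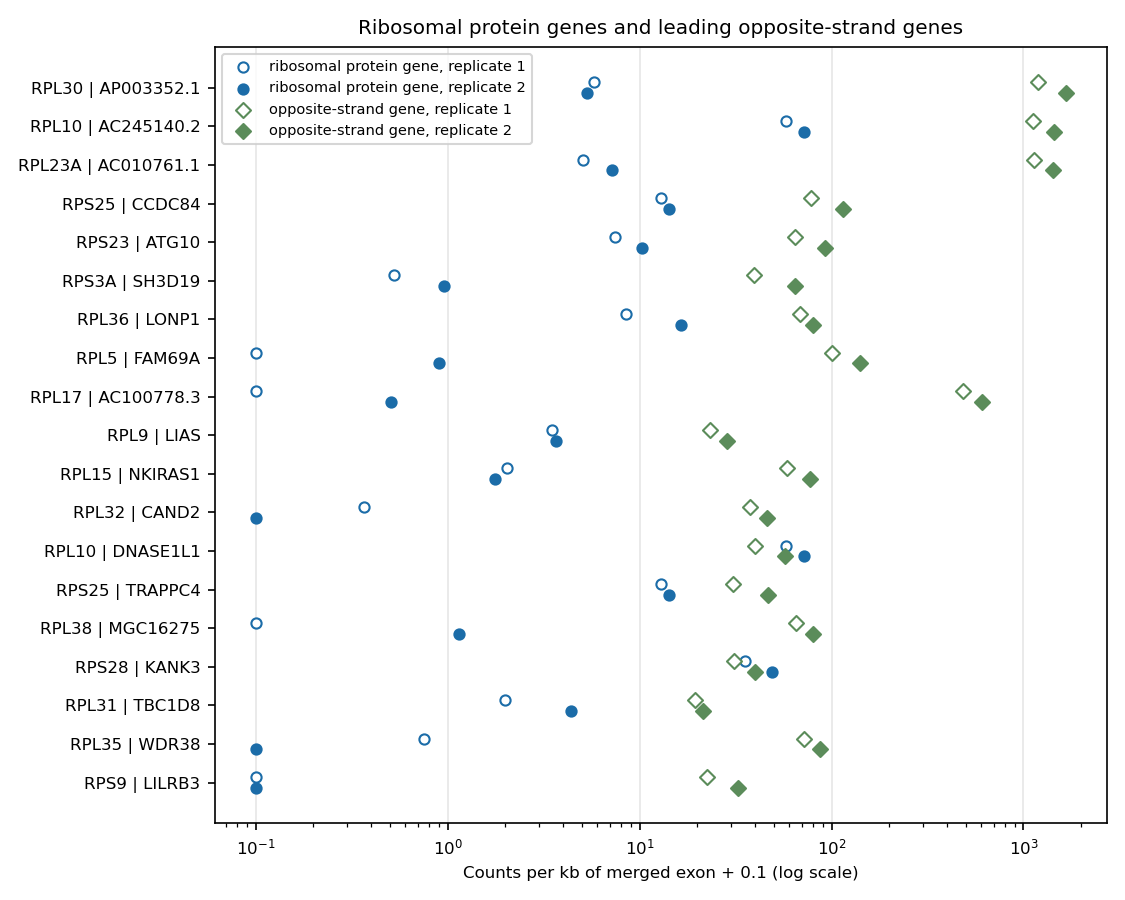
Counts per kb of merged exon plus 0.1 on a log scale for ribosomal protein genes (blue circles) and opposite-strand genes among the 20 with the most counts whose exons overlap their spans (green diamonds), with open symbols for replicate 1 and filled for replicate 2. Green lies to the right of blue in both libraries in every pair shown except RPL10 with DNASE1L1 and RPS28 with KANK3, and among the pairs drawn AP003352.1, AC245140.2 and AC010761.1 hold at least 1114 counts per kb in each library. A pair not drawn has an opposite-strand gene with 2082 and 2112.

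The overlap was then read by whether an exon of the opposite-strand gene covers a 3' splice site of the ribosomal protein gene, using the window of 30 bases printed above. This reading was chosen after the counts were seen. Of the 8 non-coding genes lying wholly inside a ribosomal protein gene, the 3 that cover such a site (AP003352.1, AC245140.2 and AC010761.1) held 2869, 2563 and 2556 counts per kb. The 5 that cover none ranged from 0 to 104, with 2 of them at 0 counts. The ranges do not overlap. AC100778.3, which lies partly outside RPL17 and covers 1 site, held 1091 counts per kb. The 8 non-coding genes that lie partly outside and cover no site of the ribosomal protein gene ranged from 1.72 to 4195, with a median of 61.5, so the highest density among the 51 opposite-strand genes was at a gene without such a site.

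The same order appeared across the genome, at lower levels. Non-coding genes lying wholly inside other protein-coding genes on the other strand had a median of 61.4 counts per kb where they cover a 3' splice site (947 genes, quartiles 2.34 and 329) and 10.1 where they do not (6486 genes, quartiles 0 and 57.6). Ranked by counts per kb among 7425 non-coding genes wholly inside any protein-coding gene on the other strand, those inside ribosomal protein genes included and each gene taken once, AP003352.1 was at 26, AC245140.2 at 32 and AC010761.1 at 34. Coding opposite-strand genes of ribosomal protein genes had a median of 96.9 counts per kb where they cover a site (7 genes, 4.07 to 194) and 14.7 where they do not (27 genes, 0 to 241), and these ranges overlap. For other protein-coding genes those medians were 23.2 (1176 genes) and 6.57 (3431 genes).

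**Figure D4:**
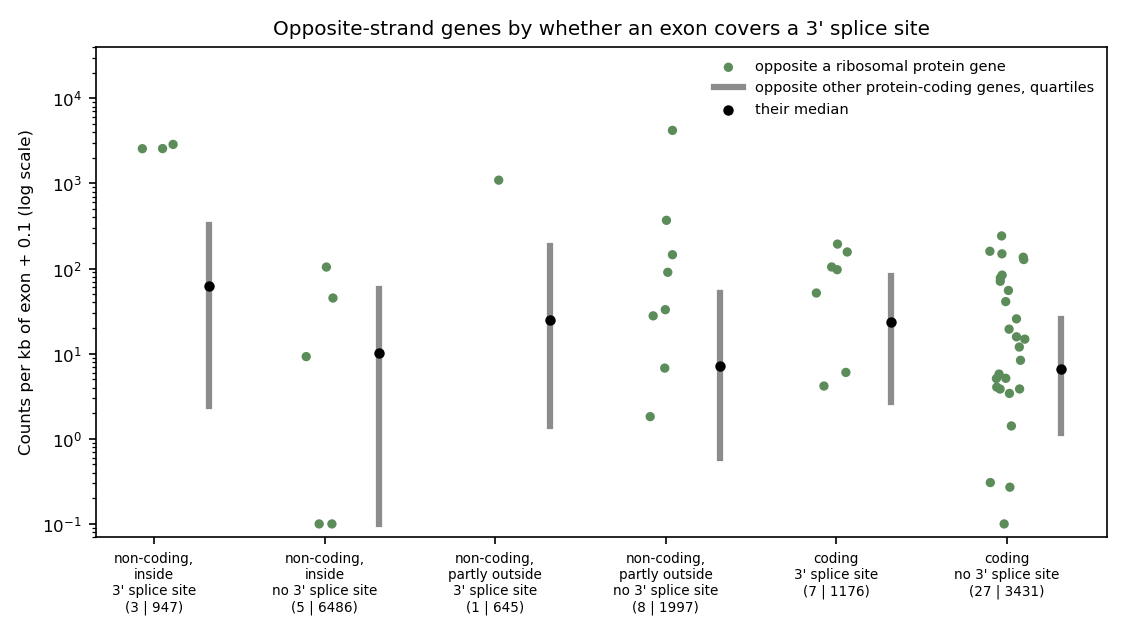
Counts per kb of exon plus 0.1 on a log scale for opposite-strand genes, split into non-coding genes wholly inside the gene they face, non-coding genes partly outside it, and coding genes, each with and without a 3' splice site under an exon. Green points are genes opposite ribosomal protein genes, grey bars the quartiles and black points the medians of genes opposite other protein-coding genes, with the numbers of both in brackets. The 3 leftmost points lie between 2556 and 2869 counts per kb, the wholly inside genes without a site lie between 0 and 104, and the highest point, 4195, is a partly outside gene without a site.

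Turned round, own exons of 7 ribosomal protein genes cover a 3' splice site of a coding gene on the other strand. They include RPL10, over 3 sites of the endonuclease-like gene DNASE1L1, and RPS28, over 1 site of KANK3, which have the highest own counts per kb of the 84. RPL10 held 130 counts per kb and DNASE1L1 96.9, and RPS28 held 84.5 and KANK3 70.7. RPS23 (over ATG10) held 17.6 and RPL27A (over ST5) 8.76. RPS3A, RPL5 and RPL22 also cover such a site and held 1.28, 0.807 and 0.427, so the reading does not hold for each gene. The median over the 7 was 63 summed counts, against 34 for the 21 genes with a coding opposite-strand gene but no such site. It was 2.5 for the 56 with no coding opposite-strand gene. The ranges of the 7 (2 to 626) and the 21 (1 to 101) overlap, and 4 of the 7 and 12 of the 21 were detected. These shares are alike, and of other protein-coding genes with a coding opposite-strand gene over their exons 56.1% were detected.

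Other genes of the translation machinery were set beside them. Of 78 mitochondrial ribosomal protein genes, whose products form the separate ribosome of mitochondria, 21 (26.9%) were detected, with a median of 1.95 log2 CPM. They were led by MRPS25 with 223 and 294 counts, MRPS22 with 190 and 285 and MRPL37 with 143 and 228. Of 41 translation factor genes 13 (31.7%) did, with a median of 2.73, led by EIF5B with 285 and 414 counts and RACK1, a scaffold protein on the small subunit, with 168 and 198. Of 40 ribosome biogenesis genes 13 (32.5%) did, with a median of 2.71, led by NHP2 with 220 and 254 and UTP20 with 88 and 136. Among these, MRPS25, MRPS22, MRPL37, EIF5B, RACK1 and NHP2 have an opposite-strand partner, and UTP20 has none. Of 10 RPS6K kinase genes 2 did, RPS6KL1 with 32 and 47 counts and RPS6KA5 with 23 and 36. FAU, which encodes a ribosomal protein fused to a ubiquitin-like sequence and falls outside the naming rule, held 0 and 3 counts.

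The replicates gave similar values for the ribosomal protein genes. The 22 detected genes had log2 ratios of replicate 2 over replicate 1 between -0.72 (RPL27A) and 0.78 (RPL31), with a median size of 0.21, against 0.21 for all 8983 genes tested. In the exact two-sided binomial test with Benjamini-Hochberg adjustment over those genes, 0 of the 22 were called at 0.05, against 0.501% of all genes. Of the 22, only RPS29 had an unadjusted exact p below 0.05, at 0.0439, with an adjusted p of 0.560. With DESeq2 size factors 0 of the 22 were called as well, 1 of them with an unadjusted p under that threshold. Of the opposite-strand genes 34 were tested and 1 was called. This test compares 2 libraries of 1 group and asks only whether they differ by more than counting error. Its p-values do not measure the spread between biological replicates.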

How the data were processed

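U2AF2 eCLIP was measured in 2 libraries of 1 group. The deposited table holds raw counts per gene as whole numbers; cutadapt, STAR 2.7.0f and GRCh38.p10 are named in the submitters' processing notes. How reads were assigned to genes, on which strand, with which annotation and whether PCR duplicates were removed is not given in the sources used here. The tallies of ambiguous, multimapping, unassigned and unmapped reads stayed out of library sizes; multimapping reads were 22.1% and 20.7% of all reads.

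Ensembl identifiers, versions removed, were looked up in GENCODE 29 (58039 genes; 263 had no model and 45 rows of the Y pseudoautosomal region were left out of the matching). Library sizes were scaled by TMM factors of 1.01 and 0.987 from genes with 10 or more counts in both libraries (edgeR 4.0.16, R 4.3.3). DESeq2 1.42.0 gave alternative size factors. The quasi-likelihood test needs groups and was not used. Genes were compared between libraries by an exact binomial test with Benjamini-Hochberg adjustment, which was tested on simulated data. Opposite-strand partners are genes whose span touches an exon of the gene; for densities, exons of the opposite-strand gene touch its span. Other steps used Python 3.11.15, scipy 1.17.1 and pandas 2.3.3.

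The members, lists and comparisons were chosen with earlier results of these data known. The genes named are the 12 with the highest CPM, those at 0, those of the role lists and paralog pairs, the 12 leading opposite-strand genes, and up to 3 leading genes of other lists; RPL24 was named after its values were seen. Some genes that this rule gives are not reported here. The rule for splice site sequences was not followed: the 11 printed were chosen from the sites read, after values were seen. Alternatives were other size factors, prior counts, count minimums, overlap rules and single libraries.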

Additional observations from a re-analysis of the deposited data

How the results depend on the processing

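Of 42 alternatives over 8 results, 23 stayed within the spread between the replicates (for counts, within 1.5 times). The 42 include single libraries, whose own values define that spread. Where the result is the mean of the libraries they fall within it by construction, so they are no separate check. The median of 1.77 log2 CPM was 1.05 with a prior count of 0.5, 4.41 among detected genes and 0.58 per kb of exon; for other protein-coding genes it was 1.00, 5.33 and 0.10. Single libraries gave 1.43 and 1.99. The large minus small subunit difference ranged from -0.45 to 0.30 over single libraries and was -0.35 among detected genes. The difference between genes with and without an opposite-strand gene was 1.65 and 1.98 in single libraries, 2.41 with a prior count of 0.5, 2.38 with exon over exon overlap, 1.36 per kb of exon and 0.42 among detected genes, where 4 genes without such a gene remain. The share of 0.0905% was 0.0637% without RPL10 and 0.0890% and 0.0921% in single libraries. With a minimum of 20 counts 11 of the 84 genes were detected, a smaller share than the 17.9% of other protein-coding genes. With a minimum of 5 counts 26 were, also a smaller share than the 32.6% of other protein-coding genes. At the main minimum the order was the reverse. Single libraries gave 22 for replicate 1, against 25.8% of other protein-coding genes, and 24 for replicate 2, against 29.6%.

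The ratio of opposite-strand to ribosomal protein genes per kb was 11.1 and 11.3 in single libraries, 33.2 for opposite-strand genes wholly inside (6.82 for other protein-coding genes), 12.1 with exon over exon overlap, 8.84 without AP003352.1 and 52.2 for non-coding opposite-strand genes (6.53 for other protein-coding genes). Chosen after the data were seen, it was 3.58 for coding opposite-strand genes (1.02 for other protein-coding genes) and 4.29 without the 4 leading genes. The ratio of large to small subunit per kb was 0.613 without RPL10, and 1.06 and 1.13 in single libraries. The replicate test called 45 genes, and 71 with no count filter, with no ribosomal protein gene among them. No paired analysis was possible because there is 1 group. With a median of 4 counts over both libraries, counting error limits any order among most of the 84 genes.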

Other observations

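The introns of ribosomal protein genes host snoRNAs, small RNAs that guide modification of ribosomal RNA and are released from the excised intron. Inside 28 of the 84 genes lie 60 annotated snoRNAs on the same strand, and they held 2 counts in replicate 1 and 18 in replicate 2. At 0 in both libraries were 56 of them. SNORA65 in RPL12 held 0 and 12 counts, SNORA66 in RPL5 0 and 4, and SNORD42B in RPL23A 1 and 2.

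Annotated pseudogenes of 77 of the 84 genes numbered 1144 and held 3796 and 5160 counts, more than the genes themselves with 917 and 1201. Those lying opposite a protein-coding gene (250 pseudogenes) held 6980 of the 8956 counts, or 49.9 counts per kb, those on the same strand as one (160) held 67, or 0.752 per kb, and those in no protein-coding gene (728) held 1840, or 4.53 per kb. Leading pseudogenes were RPS27AP10, opposite DIAPH1, with 241 and 310 counts, RPL10P12, opposite RAP1B, with 171 and 265, and RPL9P32, opposite URI1, with 155 and 251. RPS27A itself held 26 and 21 counts and RPL9 17 and 18. Reads that mapped to several places were counted on no gene, so they are missing from both pseudogenes and genes. The cause of the difference by position was not tested.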
